A study of Mus musculus with 4 samples.

Results

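The 9 genes described here encode enzymes of retinoid, aldehyde and carbonyl metabolism and 1 carrier of retinoic acid: Rdh10, Adh1, Aldh1a1, Aldh1a2, Aldh1a3, Aldh1a7, Crabp2, Cbr2 and Dcxr. They were chosen by their levels on these arrays, which were known when the list was made, among the 30222 gene names on the array. All probes that carry their names were taken, which gave 11 of 39429 probes. Because measured values chose them, the levels and ratios below describe these arrays, and no test was made. The study asked which spinal transcripts follow the daily rhythm of adrenal glucocorticoids in mice with nerve injury. Spinal cord RNA of male ICR mice, an outbred stock of 5 to 6 weeks in the study's methods, was measured on day 7 of a partial ligation of the sciatic nerve (PSL), an injury that all mice carried. The mice had been either sham-operated (sham+PSL) or adrenalectomized, that is, deprived of the adrenal glands (ADX+PSL), and lumbar slices were taken at ZT10, late in the light phase, when circulating glucocorticoid of the sham+PSL mice peaked, or at ZT22, late in the dark phase, when it had declined. Each of the 4 conditions had 1 single-colour array, and the number of mice behind an array is not given in the sources used here. The arrays are called sham ZT10, sham ZT22, ADX ZT10 and ADX ZT22 below, and where 4 levels follow each other they stand in that order.

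Cells make retinoic acid from vitamin A in a pair of oxidation steps. Alcohol and retinol dehydrogenases such as Adh1 and Rdh10 turn retinol into retinaldehyde, and the retinaldehyde dehydrogenases Aldh1a1, Aldh1a2 and Aldh1a3 turn that into retinoic acid, which Crabp2 carries to its nuclear receptors. Around the central nervous system the meninges are a known site of Aldh1a2. Aldh1a7 is a rodent paralogue of Aldh1a1, and Cbr2 and Dcxr are reductases of the short-chain dehydrogenase family that act on carbonyl compounds, Dcxr on dicarbonyls and L-xylulose.

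A level is the authors' signal intensity, quantile-normalized over the 4 arrays, in arbitrary units, and it can be compared between arrays for 1 probe but not between probes. With no replicate arrays the only error available is that of the spot, which the image software put at 10 to 20.9% of the signal for the probes that stand for the 9 genes. This leaves out differences between mice and slices. A gene counted as higher where the ratio was at least 2 and the Z-score at least 2. It counted as lower at a ratio of 0.5 or less where the Z-score was also -2.0 or below. The Z-score counts how many SDs of all probes' log2 ratios a log2 ratio lies from their mean. Where a gene had several probes, the one with the highest mean level made the call. All 9 of these probes were well above background on all 4 arrays.

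The markers of spinal cord were present on every array, since the summed levels of 6 astrocyte markers lay between 208000 and 247300 and those of 4 oligodendrocyte markers between 314100 and 335300. The astrocyte sum is mostly Aldoc, and Gfap, an astrocyte filament protein, had levels of 15516, 17308, 8565 and 18028. Between 65.1 and 70.1% of probes were well above background, no spot was saturated, and all arrays lay on 1 slide. Markers of tissues that border the cord did differ between the arrays, with values given where they touch a result. In bulk RNA, fewer cells of a type and less RNA per cell cannot be told apart.

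The sequences shown first are a stretch that 2 neighbouring members share and the 2 Dcxr probes that read differently. Aldh1a1 and Aldh1a7 are next to each other among the protein-coding genes of chromosome 19, and in the RefSeq annotation of GRCm38.p6 the 100 bases before 1 of the 2 Aldh1a1 start sites in the table and before the Aldh1a7 start site were identical at 94 positions. The run of 65 bases that both share without a difference is in capitals and ends 30 bases before each start site. The Aldh1a1 stretch lies at chr19:20601868-20601967 on the plus strand and the Aldh1a7 stretch at chr19:20727557-20727656 on the minus strand.
Aldh1a1: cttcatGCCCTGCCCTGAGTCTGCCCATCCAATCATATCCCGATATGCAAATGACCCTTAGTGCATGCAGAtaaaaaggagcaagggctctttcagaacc
Aldh1a7: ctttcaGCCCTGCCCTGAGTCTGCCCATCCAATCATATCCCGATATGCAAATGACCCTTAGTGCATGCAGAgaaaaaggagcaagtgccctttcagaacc
No other pair of the 7 member promoters (250 bases before the start site, 6 genes) shared a run of more than 10 bases. Dcxr has 2 probes, which turned out to read in opposite directions and are shown for that reason, with nothing in capitals because their longest shared run is 6 bases.
Dcxr probe A_51_P181319: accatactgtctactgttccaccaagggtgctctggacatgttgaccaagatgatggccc
Dcxr probe A_55_P2077628: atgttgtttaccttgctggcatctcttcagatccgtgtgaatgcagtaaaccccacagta
In the array's own annotation, which uses the build mm9, the first was designed on a RefSeq mRNA of Dcxr and spans chr11:120587276-120587416, 141 bases for a probe of 60, so that 81 bases of genome are skipped. The second was designed on an Ensembl transcript and covers the unbroken stretch chr11:120587140-120587199, 76 bases further along the gene. No other probe on the array shared a run of 20 bases with any member probe on either strand.

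Of the 9 genes, 3 were highest on the sham ZT10 array (Adh1, Cbr2 and Dcxr) and 4 on the sham ZT22 array (Aldh1a1, Aldh1a2, Aldh1a7 and Crabp2). Of the 21953 genes that some array showed well above background, 24.5% were highest on the first of these arrays and 24.6% on the second. Aldh1a3 was highest in ADX ZT10 and Rdh10 in ADX ZT22, where 25.8% and 25.1% of all genes were. The plot of levels by array shows these separate shapes.

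**Figure D1:**
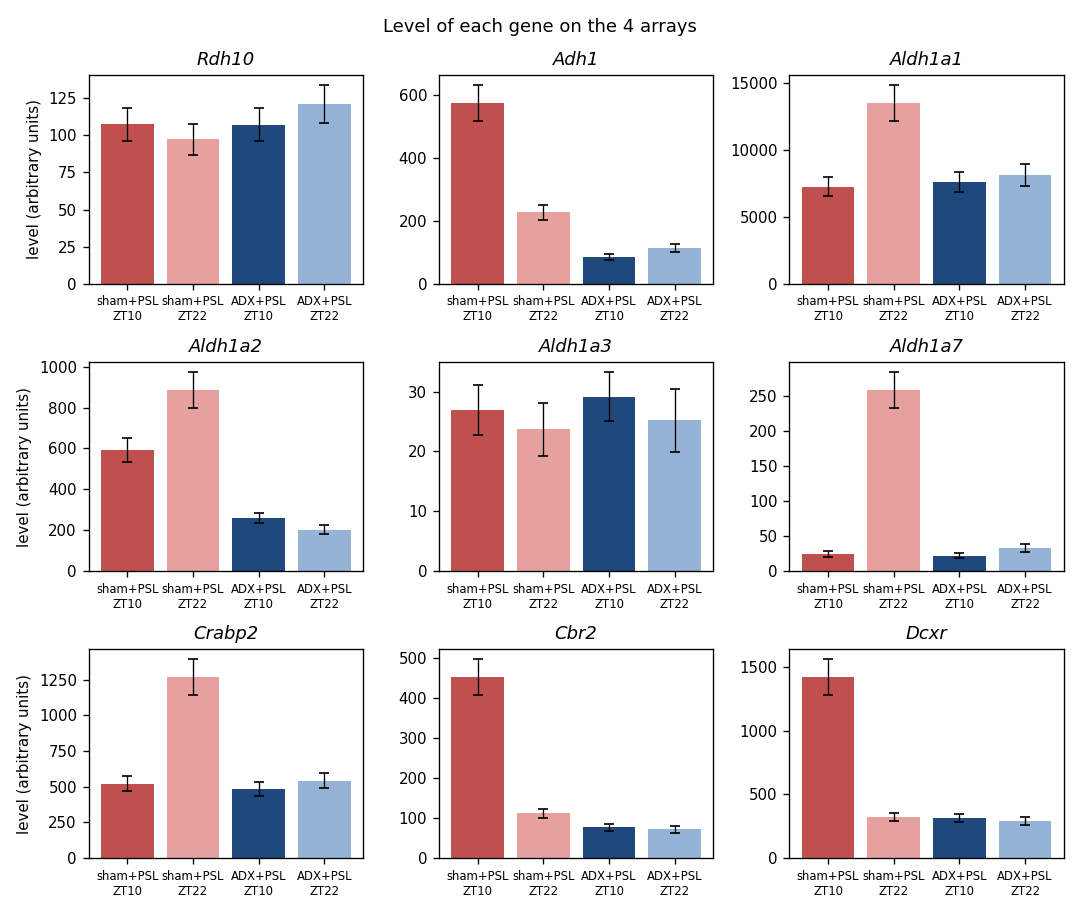
Level (arbitrary units, quantile-normalized, linear axis from 0) of the brightest probe of each gene on the 4 arrays, 1 bar per array, with bars of 1 spot error (not an error between mice). Adh1, Cbr2 and Dcxr stand highest in sham ZT10, Aldh1a7 and Crabp2 in sham ZT22, and Aldh1a2 in both sham arrays.

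In sham mice, 3 of the 9 genes were higher at ZT10 than at ZT22 (Adh1, Cbr2 and Dcxr) and 2 were lower (Aldh1a7 and Crabp2), where 2.30% and 2.23% of the 20987 genes tested passed the same limits. In ADX mice none of the 9 passed them between the times in either direction, where 2.18% of 20929 genes were higher at ZT10 and 1.75% lower. Between operations, 4 of the 9 were lower in ADX at ZT10 (Adh1, Aldh1a2, Cbr2 and Dcxr; 2.55% of 21512 genes) and 3 at ZT22 (Aldh1a2, Aldh1a7 and Crabp2; 2.27% of 20421). None was higher in ADX at either time, where 2.20% and 1.64% of genes were. The choice of the members used these contrasts, so nothing is read from the counts. The comparisons also share arrays, so that a gene that stood out on the sham ZT10 array entered both the time comparison and the ZT10 comparison with that 1 array.

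**Figure D2:**
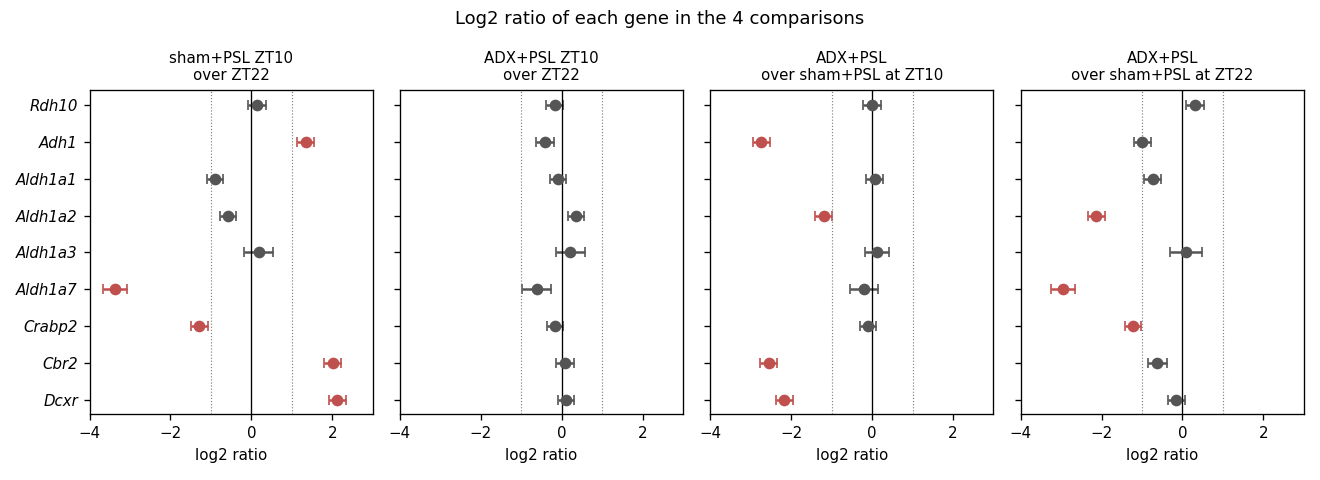
Log2 ratio of each gene (brightest probe) in the 4 comparisons, with bars of 1 spot error and dotted lines at a ratio of 2 in either direction, and with the ratios past both limits in red. The ADX time comparison holds no red point, and its log2 ratios run from -0.62 to 0.36.

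The step from retinol to retinaldehyde is represented by Rdh10 and Adh1. Rdh10, the retinol dehydrogenase that embryos need for retinoic acid, had levels, by a probe at chr1:16122062-16122121 of mm9, of 107.3, 97.4, 107.2 and 121. Its log2 ratios lay between -0.18 and 0.31, each within 2 spot errors of 0, so its 4 levels have no order beyond the error. Of the 19052 genes well above background on all arrays, 45.9% spanned at least as wide a range as Rdh10.

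Adh1, the class I alcohol dehydrogenase, which oxidizes ethanol as well as retinol, had levels, by a probe at chr3:137952821-137952880 of mm9, of 576, 227, 86.1 and 114. Both ADX arrays lay below both sham arrays. The sham level was 2.53-fold higher at ZT10 (log2 ratio 1.34 ± 0.21, spot error), and the ADX level at ZT10 was 6.69-fold lower than the sham level at that time (-2.74 ± 0.21). In ADX the order of the times was turned, with a log2 ratio of -0.41 ± 0.22, within 2 spot errors. At ZT22 the ratio of ADX to sham was 0.503 (log2 -0.99, Z-score -1.64), which missed the ratio limit narrowly and the Z-score limit by more. The Adh1 range over the 4 arrays was reached by 0.304% of genes.

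The oxidation of retinaldehyde to retinoic acid is represented by Aldh1a1, Aldh1a2 and Aldh1a3, which differed in how they varied. Aldh1a2, whose probe lies at chr9:71143931-71143990 of mm9, had levels of 594, 886, 259 and 203, so the operations did not overlap. The ADX level was 2.29-fold lower at ZT10 (log2 -1.20 ± 0.20, Z-score -2.05, just past the limits) and 4.37-fold lower at ZT22 (-2.13 ± 0.21). Between the times Aldh1a2 passed no limit, with log2 ratios of ZT10 to ZT22 of -0.58 ± 0.20 in sham and 0.36 ± 0.21 in ADX.

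Aldh1a1, a retinaldehyde dehydrogenase that also oxidizes other aldehydes, had levels, by a probe at chr19:20717764-20717823 of mm9, of 7255, 13492, 7583 and 8097. The sham ZT22 array stood above the other three, which lay within 2 spot errors of each other. Its log2 ratios of -0.90 ± 0.20 between the times in sham and of -0.74 ± 0.20 between the operations at ZT22 did not reach a ratio of 0.5. Aldh1a3, by a probe at chr7:73535785-73535844 of mm9, had levels between 23.7 and 29.2, not far above the lowest levels called well above background on the arrays (12.8 to 22.2), and its log2 ratios between 0.09 and 0.21 were smaller than their spot errors.

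Aldh1a7, whose probe lies at chr19:20767553-20767612 of mm9, had levels of 25.0, 258, 21.8 and 33.5. It thus stood out on 1 array, on the remaining 3 it was close to background, and 0.126% of genes had at least its range. The level at ZT10 in sham was 10.3-fold lower than at ZT22 (log2 -3.37 ± 0.29), and the ADX level at ZT22 was 7.71-fold lower than in sham (-2.95 ± 0.29). With normexp background correction, an alternative with an offset of 50 that shrinks the ratios of dim probes, those log2 ratios were -1.87 and -1.76. Its genomic neighbour Aldh1a1 was also highest on that array, by 1.67-fold over the next, as were 24.6% of all genes, and it passed no limit. Any part of the near-identical stretch shown above, which lies before 1 of its 2 start sites, was not tested. The Aldh1a1 and Aldh1a7 probes lie 49730 bases apart and shared no run of more than 8 bases. They were compared only with other probes, so binding of Aldh1a1 RNA to the Aldh1a7 probe was not tested.

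Crabp2, which delivers retinoic acid to its receptors in the nucleus and is itself known as a retinoic acid target, had levels, by a probe at chr3:87757207-87757266 of mm9, of 520, 1266, 484 and 543. Only the sham ZT22 array stood apart, and the other three differed by less than 2 spot errors. The level was 2.43-fold lower at ZT10 than at ZT22 in sham (log2 -1.28 ± 0.20, Z-score -2.15) and 2.33-fold lower in ADX than in sham at ZT22 (-1.22 ± 0.20, Z-score -2.01), both near the limits.

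The reductases Cbr2 and, by 1 of its 2 probes, Dcxr were highest on the sham ZT10 array. Cbr2, carbonyl reductase 2, had levels, by a probe at chr11:120590825-120590884 of mm9, of 452, 112, 76.9 and 72.8. The sham ZT10 level was 4.04-fold above the ZT22 level (log2 2.02 ± 0.21) and the ADX ZT10 level was 5.88-fold below that of sham ZT10 (-2.56 ± 0.21). Its second probe, which starts at base 294 of the transcript where the first starts at base 935, gave 58.6, 16.7, 15.7 and 21.2. It was not well above background on the ZT22 arrays of both operations, so that it bounds the sham ratio of ZT10 to ZT22 at least 3.19-fold higher. Both Cbr2 probes were therefore highest in sham ZT10.

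Dcxr, by its brighter probe on the spliced mRNA, had levels of 1419, 324, 315 and 292, with a log2 ratio of 2.13 ± 0.20 between the times in sham (4.38-fold) and of -2.17 ± 0.20 between the operations at ZT10 (4.50-fold lower). The remaining 3 arrays lay within 2 spot errors of each other. The second Dcxr probe, on the unbroken stretch, ran the other way, with levels of 341, 531, 596 and 597, and was lowest on the array where the first was highest. Its log2 ratios were -0.64 ± 0.20 between the times in sham and 0.81 ± 0.20 between the operations at ZT10, neither past the limits. The call for Dcxr thus rests on 1 probe. That probe has the highest mean level only through the sham ZT10 array, the array of the call itself, and by the mean of log2 levels the second probe would have made the call. The mean of both probes gave log2 ratios of 0.75 and -0.68, past no limit.

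**Figure D3:**
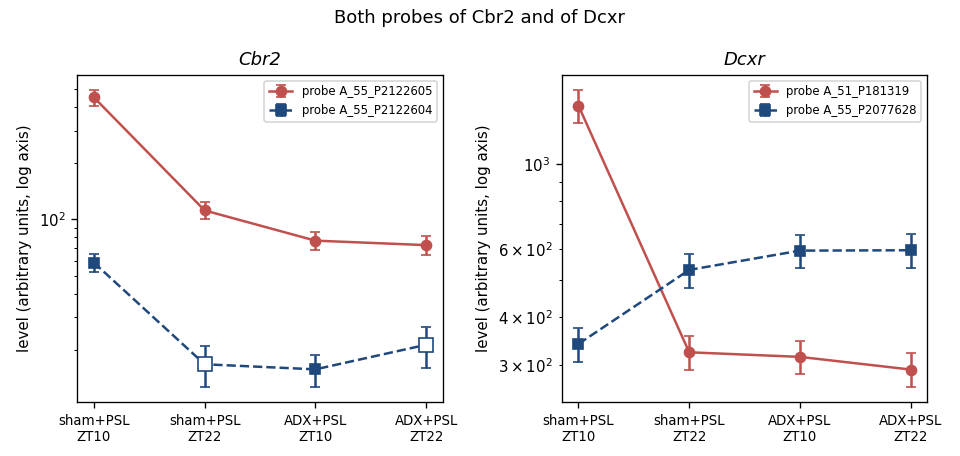
Level (arbitrary units, log axis) of both probes of Cbr2 and of Dcxr on the 4 arrays, with bars of 1 spot error, where open symbols mark arrays on which the probe was not well above background. Heights of different probes are not comparable. The Cbr2 probes share their highest array, and the Dcxr probes run in opposite directions.

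Cbr2 and Dcxr are adjacent protein-coding genes on chromosome 11, with their brighter probes 3409 bases apart. Within 100 kb of either probe, 14 other genes were well above background on at least 1 array. None of the 14 passed the limits in any comparison, where 1.64 to 2.55% of all genes did per comparison and direction. At such shares so few genes can hold no call, and nothing is read from the count. The neighbours' log2 ratios of ZT10 to ZT22 in sham lay between -0.83 and 0.11, and those of ADX to sham at ZT10 between -0.28 and 0.48. The map of log2 ratios by distance shows the brighter probes of Cbr2 and Dcxr with these neighbours, among them Rac3, Lrrc45, Notum and Fasn, the fatty acid synthase. Cbr2 and Dcxr were chosen by these levels, so nothing is read from their standing apart. The second Dcxr probe, with -0.64 and 0.81 in the same comparisons, is not drawn. Around Crabp2 8 such neighbours, among them Nes and Bcan, likewise held no call.

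**Figure D4:**
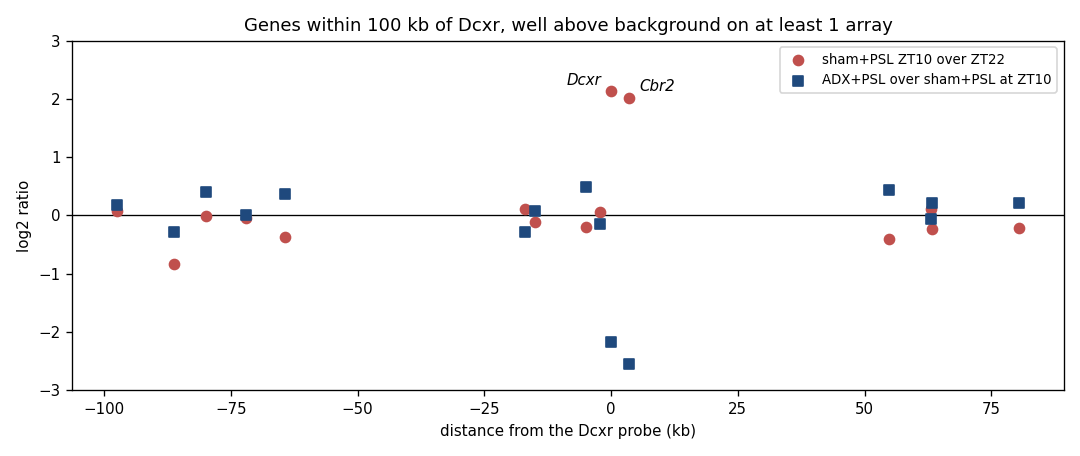
Log2 ratio of Dcxr, Cbr2 and the 13 other genes within 100 kb against their distance from the Dcxr probe in kb, with circles for sham ZT10 over ZT22 and squares for ADX over sham at ZT10, 1 probe per gene. Dcxr and Cbr2, which were chosen by these levels, lie near 2 and below -2.0, and the others between -0.83 and 0.48. The second Dcxr probe is not drawn.

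The promoter windows of the members were searched for motifs on both strands, over 300 bases from 250 before to 50 after the start site. The glucocorticoid response element (AGAACA, any 3 bases, TGTTCT) and retinoic acid elements (AGGTCA repeated at a spacing of 5 or of 2) were found in none of the 7 member windows, and each was found in 0.00913% of the 32851 windows in the table. The single 6-base arm TGTTCT, which the full glucocorticoid element contains, occurred in the Adh1 window alone among the members, at positions -235 to -230 from the start, and in 19% of all windows. The E-box CACGTG also occurred among the members in the Adh1 window alone, at positions 4 to 9, against 7.15% of all windows. At these shares nothing is read from the counts over 7 windows. A match is a description of the letters, and its absence from these windows says nothing of a factor's binding.

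Both ADX arrays lay below both sham arrays for 4 of the 9 genes (Adh1, Aldh1a2, Cbr2 and Dcxr) and above them for none, where 15.8% and 19.4% of all genes did so. For Dcxr the gap between its lower sham level and its ADX levels was within 2 spot errors, its second probe had both ADX levels above both sham levels, and with the mean over a gene's probes the count was 3, without Dcxr. The median log2 ratio of ADX to sham over the 9 genes was -0.20 at ZT10 and -0.74 at ZT22, beside 0.0090 and 0.0048 over all genes tested. Between the times the medians were 0.14 in sham and -0.095 in ADX, beside 0.0089 and 0.013.

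Many markers of meningeal fibroblasts and border macrophages also lay lower on both ADX arrays, in lists chosen with earlier results of these data known. Of 18 markers of meningeal fibroblasts, the collagen-making cells of the coverings of the cord, 17 were well above background on at least 1 array (Slc47a1 was not), and for 16 of these both ADX levels were below both sham levels. Their summed levels were 25090 and 22280 in sham ZT10 and ZT22 and 9202 and 9616 in ADX. Dcn and Col1a2 have the largest levels in that sum on each array. Single markers differed between the sham arrays, with Lum at 483 in ZT10 and 213 in ZT22, and Slc22a6 the other way. At ZT10 12 of the fibroblast markers were past the limits as lower in ADX, and 10 at ZT22, beside 2.55% and 2.27% of all genes. The 10 include Slc22a6, with 50.7, 339, 51.8 and 50.9, which stood out on the sham ZT22 array alone. Of 10 markers of border macrophages 9 were well above background (Cd163 was not), 7 lay lower on both ADX arrays, and their summed levels were 1470 and 971 in sham against 558 and 688 in ADX. Of these, 4 were past the limits as lower in ADX at ZT10, namely Mrc1, Lyve1, Pf4 and F13a1, and 1 at ZT22, Clec10a. The part of these cells in the levels of Adh1, Aldh1a2, Cbr2 and Dcxr was not tested.

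The sham ZT10 array, on which Adh1, Cbr2 and Dcxr were highest, also carried skeletal muscle markers, with a summed level of 1657 over 5 markers of fast muscle (the other listed one, Mylpf, was not well above background) against 118, 93.4 and 91.3 on the other arrays. Red blood cell markers summed to 135900 there and to 18770 in sham ZT22, with 95070 and 89810 in ADX, so the sham ZT22 array, on which Aldh1a7 and Crabp2 were highest, was the one with least of them. Of 6 Schwann cell markers, 5 were above background and 4 lay lower on both ADX arrays, among them Prx and Egr2, while the summed level, which is nearly all Mal, a gene that oligodendrocytes also express, ran from 46640 to 70400. The part of muscle, blood and nerve root in the members' levels was not tested.

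**Figure D5:**
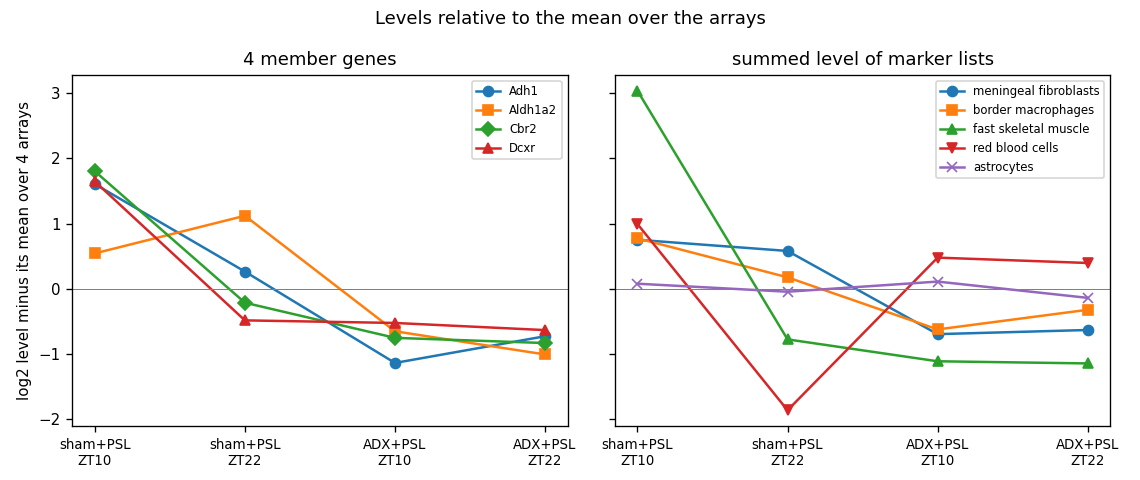
Log2 level minus its mean over the 4 arrays for the 4 genes lower on both ADX arrays (left) and for the summed level of 5 marker lists (right), 1 point per array. The fibroblast and macrophage sums, like the 4 genes, are lower on the ADX arrays, and the muscle sum is high on the sham ZT10 array alone. Cbr2 and Dcxr, by their brighter probes, stand out on the sham ZT10 array, and for Dcxr sham ZT22 is within 2 spot errors of ADX. The astrocyte sum, which is mostly Aldoc, varies least.

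The genes whose levels had a shape most like a member's, by the root mean square difference of log2 levels after centring over the 4 arrays, were taken from genes well above background on all arrays. For Adh1 these were Pcolce, an enhancer of procollagen processing (0.21), Lum, a collagen-binding proteoglycan of fibroblasts (0.22), and Tnni2, a troponin of fast muscle (0.23). For Aldh1a2 they were Rab44 (0.14), Nupr1 (0.14) and Igfbp6 (0.16), with Igfbp6 at 1253 and 2155 in sham and 468 and 452 in ADX. Cbr2 was nearest to Tnni2 (0.11), Cytl1 (0.16) and Dcxr (0.22), and Dcxr to Cytl1 (0.20), Trmt61b (0.21) and Cbr2 (0.22). Here Dcxr was read by its brighter probe alone, and the likeness does not extend to its second probe, which ran the other way. With Aldh1a7 went Slc6a4, the serotonin transporter (0.26), at 17.8, 146, 20.4 and 24.2, and Slc22a6, an organic anion transporter and one of the fibroblast markers (0.34), at 50.7, 339, 51.8 and 50.9. Crabp2 had 180 genes within 0.3, the nearest being Batf2 (0.099), where the other members whose neighbours are named here had 1 to 16. The distance is not scaled for range, and Crabp2 spanned 1.39 on the log2 scale where those members spanned 2.13 to 3.57. The counts therefore do not compare how common the shapes are. These likenesses rest on 4 arrays and are descriptions only.

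Of 38 further genes of retinoid transport, storage, oxidation and reception, 37 were on the array and 26 well above background on at least 1 array. None passed the limits between the times in either operation, nor between the operations at ZT10. In those comparisons 1.75 to 2.55% of all genes passed per direction, so nothing is read from the absence of calls among so few genes. At ZT22 Stra6, the membrane receptor for the retinol carrier, and Cyp26b1, which degrades retinoic acid, were lower in ADX, and Lrat, which stores retinol as esters, was higher. These are 7.69% and 3.85% of the 26, beside 2.27% and 1.64% of all genes. Stra6 had levels of 74.1, 132, 33.7 and 19.9, the last not well above background, so it was at least 5.96-fold lower at ZT22. Cyp26b1 had 398, 722, 241 and 261 (2.76-fold lower at ZT22) and was, like Crabp2, highest on the sham ZT22 array. Lrat had 95.3, 46.1, 79.2 and 116 (2.52-fold higher at ZT22). Rbp4, the retinol carrier of the blood, was not past both limits, with levels of 2355, 3355, 1693 and 1466, and lay lower on both ADX arrays. In all, 5 of the 26 (19.2%) lay lower on both ADX arrays and 1 (3.85%) higher, beside 15.8% and 19.4% of all genes.

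The 16 other aldehyde dehydrogenases, such as the mitochondrial Aldh2 and the folate enzyme Aldh1l1 of astrocytes, were all well above background on at least 1 array. None of the 16 passed the limits in any comparison, where 1.64 to 2.55% of all genes did per comparison and direction. At such shares so short a list can hold no call, and nothing is read from the count. Of the 16, 4 (25.0%) lay lower on both ADX arrays and 1 (6.25%) higher, beside the same 15.8% and 19.4%. Of 33 further carbonyl and aldo-keto reductases 32 were on the array and 26 well above background. Between the times 1 of them was higher at ZT10 in ADX, Akr1e1, with levels of 526, 500, 717 and 250.3. Between the operations 1 was lower in ADX at ZT10, Akr1c14, a hydroxysteroid dehydrogenase, with 46.4, 32.0, 12.6 (not well above background) and 24.0, at least 3.62-fold lower. These single genes are 3.85% of the 26, beside 2.18% and 2.55% of all genes in those comparisons and directions. On both ADX arrays 5 of the 26 (19.2%) lay lower and none higher.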

How the data were processed

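The authors hybridized labelled spinal RNA of each of the 4 conditions to 1 Agilent array of 60-base probes, and deposited each array's intensities per spot, as the Agilent image software gave them (background-subtracted signal, its error, raw signal and flags). The software version is 10.7.1.1 per the file headers and 9.5.1.1 per the submitters' processing notes. They also deposited a table of signal intensities on the linear scale, quantile-normalized over the 4 arrays, 1 value per probe, which gave the levels here. Own quantile normalization of the raw files differed from it by at most 0.011 on the log2 scale for the member probes.

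Log2 ratios, Z-scores over 39429 probes and the limits that the study's methods name were computed with Python 3.11.15, numpy 2.4.6 and pandas 2.3.3, and alternative normalizations with limma 3.58.1 in R 4.3.3. The paper does not define the Z-score. A gene was tested if its brightest probe was flagged well above background on the array where it was brighter. Spot error is the software's signal error over the signal, on the log2 scale, combined over both arrays. There were no replicate arrays, hence no test, and precision is limited by the count of arrays. The step that computes log2 ratios, Z-scores and calls was tested on simulated levels with noise of the size of the spot error. The other steps were not tested in this way. Samples were grouped by their titles. The members, the pathway and marker lists and the rule for naming genes (all members, pathway genes past the limits, the nearest genes in shape) were chosen with earlier results of these data known. Promoters and gene order are from RefSeq tables of GRCm38.p6, in which 6 of 9 members had a promoter (Aldh1a3, Crabp2 and Rdh10 did not), and probe coordinates are those of mm9 in the deposited files.

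Alternatives were other normalizations (own quantile, with outlier spots left out, of the 2 arrays compared, 75th percentile, none), normexp (offset 50) or no background correction, a ratio of 2 or of 1.5 alone, other filters on dim probes and the mean over a gene's probes. The probe with the highest mean log2 level was added after seeing the data.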

Additional observations from a re-analysis of the deposited data

Results flagged for a closer look

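For 2 genes the log2 ratio of ZT10 to ZT22 had opposite signs in sham+PSL and ADX+PSL, each larger than 1 spot error. For Adh1 the sham+PSL ratio was 1.34 and the ADX+PSL ratio -0.41, a difference of 1.75 ± 0.30 (spot error). For Aldh1a2 they were -0.58 and 0.36, a difference of -0.93 ± 0.29. With 1 array per condition neither difference was tested, and both ADX+PSL ratios lay within 2 spot errors of 0.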

How the results depend on the processing

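Each condition had 1 array, so array-to-array spread is unknown and no array could be left out in turn. No paired analysis was possible because each condition had a single array and the labels carry no replicate numbers. With 1.5 as the ratio limit, without a Z-score, 1 member (Aldh1a7) in place of 0 passed between the times in ADX+PSL, and 6 in place of 3 were lower in ADX+PSL at ZT22. The other counts stayed within 1.5 times under the alternatives that apply to them. The genes counted changed in that Aldh1a2 at ZT10 was not called after quantile normalization of the 2 arrays compared, and in that Dcxr left the genes lower on both ADX+PSL arrays with normexp or without background correction. With the mean over a gene's probes Dcxr was not counted, which gave 2 in place of 3 genes higher at ZT10 in sham+PSL, 3 in place of 4 lower in ADX+PSL at ZT10 and 3 in place of 4 lower on both ADX+PSL arrays. Under the 7 alternatives of normalization and background, 21 of 252 log2 ratios of members moved by more than 1 spot error, all with normexp or without background correction, and no called ratio changed its sign. With the probe of the highest mean log2 level, chosen after seeing the data, Dcxr was read by its other probe, and its log2 ratio reversed to -0.64 between the times in sham+PSL and to 0.81 between the operations at ZT10. Low signal limits Aldh1a3, the second Cbr2 probe and the 3 lower levels of Aldh1a7.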
